A study of Mus musculus with 3 samples.

Results

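Tubulin genes were followed together with Ttc5, the gene of the ribosome-associated factor through which cells adjust tubulin mRNA to their supply of free tubulin. The members were 10 symbols named in a list: the alpha-tubulin genes Tuba1a, Tuba1b, Tuba1c and Tuba4a, the beta-tubulin genes Tubb2a, Tubb2b, Tubb4b, Tubb5 and Tubb6, and Ttc5. All 10 were present among the 32285 genes of the tables of unique molecular identifiers (UMIs, 1 per captured molecule), and all 10 had a mean of at least 10 CPM (UMIs of the gene per 1000000 UMIs), as did 7608 genes in all. Levels were read over barcodes with at least 15000 UMIs and 1 to 20% mitochondrially encoded (mt-) UMIs.

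Mouse embryonic stem cells of the E14 line, of 129/Ola background, were grown with serum and leukemia inhibitory factor, and treatment started 24 h after seeding. There were 3 libraries: a control with ethanol alone over 6 h, and cycloheximide at 250 µg/mL, carried in 0.007% ethanol, over 3 h and over 6 h. Every library came from the same single line, the cells had been frozen before 10x Genomics 3' sequencing, and no ethanol control of 3 h was part of the 3 libraries. With 1 library per group there was no test between groups, and the 95% intervals given cover counting error only.

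Microtubules are polymers of alpha- and beta-tubulin dimers. When soluble dimers accumulate, TTC5 recognises the first residues of a tubulin chain as it emerges from the ribosome, and with SCAPER it brings the CCR4-NOT deadenylase to the mRNA being translated, which is then degraded. This autoregulation therefore acts only on tubulin mRNA that is being translated, and cycloheximide stalls elongating ribosomes on their mRNA.

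The residues that TTC5 reads are encoded at the very start of the coding sequence, so the first 30 coding bases of the tubulin members are shown, with the 12 bases that encode the recognised residues in capitals. They were read 5′ to 3′ from GENCODE M21 transcripts on GRCm38.
Tuba1a: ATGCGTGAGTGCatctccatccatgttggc
Tuba1b: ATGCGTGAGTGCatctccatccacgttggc
Tuba1c: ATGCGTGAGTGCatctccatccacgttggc
Tuba4a: ATGCGCGAGTGCatttcagtccatgtgggg
Tubb2a: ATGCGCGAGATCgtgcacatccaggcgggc
Tubb2b: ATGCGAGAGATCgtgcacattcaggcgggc
Tubb4b: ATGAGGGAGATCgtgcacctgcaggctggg
Tubb5: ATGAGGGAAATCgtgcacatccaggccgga
The alpha members share codons for methionine, arginine, glutamate and cysteine, and the beta members share codons for methionine, arginine, glutamate and isoleucine. Tubb6 carries the beta form as well. Of 21371 protein-coding genes read in the same way, 16 (0.0749%) began with either form, and all 16 were alpha- or beta-tubulin genes, namely the 9 members and 7 others. Ttc5 did not begin with it. Tuba1b and Tuba1c had 0 differences over the 30 bases, and Tuba1a differed from either at 1 base.

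The 3 alpha genes Tuba1a, Tuba1b and Tuba1c lie close together on chromosome 15 of GRCm38, at 98949837 to 98953703, 98931425 to 98934565 and 99029891 to 99038110. Tubb2a and Tubb2b are neighbours on chromosome 13, at 34074274 to 34078007 and 34126748 to 34130466. Tuba4a lies on chromosome 1 (75214228 to 75219865), Tubb4b on chromosome 2 (25222160 to 25224702), Tubb5 on chromosome 17 (35833921 to 35838306), Tubb6 on chromosome 18 (67390717 to 67402749) and Ttc5 on chromosome 14 (50765415 to 50785519). Reads that fit several genes cannot be assigned to a single gene by their sequence, so near-identical copies can be miscounted. Of all stretches of 50 bases in the last 500 bases of the transcript, 56.3% for Tuba1a, 63.6% for Tuba1b and 68.3% for Tuba1c also occurred in a transcript of another gene, pseudogenes included. The share was 42.4% for Tubb2a and 35.3% for Tubb4b, and 0 for Tubb2b, Tuba4a, Tubb5, Tubb6 and Ttc5. Among counted genes, Tuba1a, Tuba1b and Tuba1c shared such stretches only with each other, Tubb2a with Tubb2b and Tubb4a, and Tubb4b with none. Values of Tuba1a, Tuba1b and Tuba1c are therefore uncertain as single genes and in sum, and those of Tubb2a in part. What sequence shared with genes that were not counted does to these values, those of Tubb4b included, was not tested.

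The control, 3 h and 6 h libraries kept 2187, 1739 and 2554 barcodes, with 111447486, 106842407 and 140321458 UMIs. Median UMIs per barcode were 43160.0, 51726.0 and 46200.0, and mt- UMIs made up 4.57%, 3.51% and 2.94%. The 3 h library shared 3 barcode sequences with the control and 1 with the 6 h library, and the 6 h library shared 3 with the control. The stem cell markers Pou5f1, Sox2, Nanog, Esrrb, Zfp42, Klf4, Dppa5a and Tdgf1 were all above 50 CPM in every library. Fibroblast markers (7 genes) summed to 2.48, 1.62 and 1.29 CPM, with Col3a1, Postn and Lum at 0 in all 3 libraries. Endoderm markers (6 genes) summed to between 8.94 and 12.4 CPM, mesoderm markers (4 genes) to between 4.05 and 6.81 CPM, and trophoblast markers (5 genes) to 27.7, 21.9 and 21.6 CPM with Elf5 at 0. Neural markers (8 genes) summed to 155, 129 and 108 CPM, mostly from Tubb3 and Stmn2, and Pax6 stayed at or below 4.18 CPM.

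The 9 tubulin members together held 0.359%, 0.319% and 0.282% of all UMIs in the control, 3 h and 6 h libraries. Their summed level was 3592 CPM (interval 3581 to 3603) in the control, 3188 CPM (3177 to 3198) at 3 h and 2819 CPM (2811 to 2828) at 6 h. The level was lower in each later library, with log2 ratios to the control of -0.17 at 3 h and -0.35 at 6 h. Over the 7608 genes, the median log2 ratios were 0.11 and 0.17. Scaling moved where equality lay: trimmed mean of M-values (TMM) factors shifted every ratio by -0.17 at 3 h and -0.29 at 6 h, and mean UMIs per barcode shifted them by 0.27 and 0.11. The summed ratio at 6 h remained below 0 under both, at -0.64 and -0.24, whereas at 3 h it was -0.35 under TMM factors and 0.10 by mean UMIs per barcode.

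The difference by CPM lay mostly on the beta side of the dimer. The 5 beta members summed to 2236, 1788 and 1517 CPM in the control, 3 h and 6 h libraries, log2 ratios of -0.32 and -0.56, and they remained below 0 under TMM factors (-0.50 and -0.85) and by mean UMIs per barcode (-0.05 and -0.45). The 4 alpha members summed to 1356, 1399 and 1302 CPM, log2 ratios of 0.05 and -0.06, beside -0.13 and -0.35 with TMM factors and 0.32 and 0.05 by mean UMIs per barcode. The number of alpha UMIs per beta UMI was 0.607 (0.603 to 0.610) in control cells, 0.783 (0.777 to 0.788) after 3 h and 0.858 (0.853 to 0.863) after 6 h. This quotient does not depend on library scaling, but its level can depend on reads that fit several genes.

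**Figure D1:**
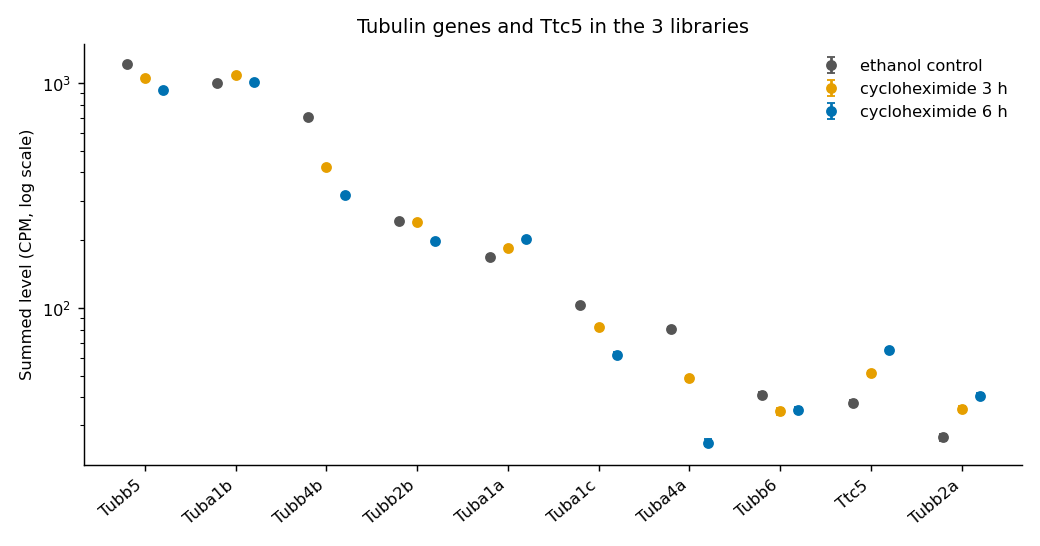
Summed level of each member in CPM (log axis) for the 3 libraries, ordered by the control, with exact Poisson 95% intervals as bars (often smaller than the points). Tubb4b and Tuba4a step down from control to 3 h to 6 h, Ttc5 and Tubb2a step up, and Tuba1b stays near 1000 CPM.

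Past a log2 ratio of 0.5 in size, 2 of the 10 members were lower at 3 h (Tubb4b and Tuba4a) and 0 were higher, against 3.21% and 17.9% of the 7608 genes. At 6 h, 3 members were lower (Tuba4a, Tubb4b and Tuba1c) and 2 were higher (Ttc5 and Tubb2a), against 9.69% and 26.6% of all genes. Between 3 h and 6 h, 1 member was lower (Tuba4a) and 0 were higher, against 3.68% and 3.23%. The members' median log2 ratios to the control were -0.11 (3 h) and -0.25 (6 h). Under TMM factors 6 members were lower and 0 higher at 6 h, against 21.5% and 14.1% of all genes, since Tubb2b, Tubb5 and Tubb6 then passed the limit and Tubb2a and Ttc5 did not. By mean UMIs per barcode, an alternative added after the data had been seen, 0 members were lower and 2 higher at 3 h (Ttc5 at 0.71 and Tubb2a at 0.68), against 1.08% and 37.1% of all genes. By this scaling 3 were lower and 2 higher at 6 h, against 7.19% and 33.0%, and 3 were lower and 0 higher between the times, against 7.98% and 1.09%. With TMM factors Tuba1c joined the 2 lower members at 3 h (8.12% of genes were lower and 10.8% higher), and 3 members were lower and 0 higher between 3 h and 6 h, against 6.18% and 1.51%. Among the 2938 genes of at least 50 CPM on average, the shares by CPM were 2.31% lower and 11.8% higher at 3 h, 8.51% and 19.3% at 6 h, and 2.93% and 1.57% between the times.

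Among the alpha members, Tuba1b supplied most of the UMIs. The control held 1004 CPM of it, the 3 h library 1084 CPM and the 6 h library 1013 CPM, a narrow band. By CPM these are log2 ratios of 0.11 and 0.01, and with TMM factors -0.06 and -0.27, which puts it on the other side of the control. Tuba1a, the alpha isotype known for its role in the developing brain, was at 169 CPM, 185 CPM and 202 CPM, with log2 ratios of 0.14 and 0.26 that became -0.04 and -0.03 under TMM factors.

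Tuba1c and Tuba4a went the other way. The levels of Tuba1c were 103 CPM (interval 101.3 to 105.1), 81.9 CPM (80.1 to 83.6) and 62.0 CPM (60.7 to 63.3) in the same order, a log2 ratio of -0.33 and then -0.74. Tuba4a was at 80.4 CPM (78.7 to 82.1), 48.6 CPM (47.3 to 49.9) and 25.2 CPM (24.3 to 26.0). Its 6 h level was 31.3% of the control, a log2 ratio of -1.68 (-1.73 to -1.62), and its 3 h ratio was -0.73. Only 0.67% of the 7608 genes had a lower ratio at 6 h. Both genes were lower at both times by CPM, under TMM factors and by mean UMIs per barcode, where the 3 h value of Tuba1c came closest to 0 at -0.06. Tuba1b and Tuba1c, both uncertain as single genes, had log2 ratios of 0.01 and -0.74 at 6 h. Any part of the coding start in these ratios was not tested. Summed, Tuba1a, Tuba1b and Tuba1c were at 1276 CPM, 1351 CPM and 1277 CPM, so their total at 6 h was 100.1% of the control.

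Among the beta members, Tubb5 and Tubb4b were the most abundant. Tubb5, a broadly expressed isotype, was at 1219 CPM (1213 to 1226), 1054 CPM (1047 to 1060) and 926 CPM (921 to 931). At 6 h it stood at a log2 ratio of -0.40, and at 3 h at -0.21, or 0.06 by mean UMIs per barcode. Tubb4b, another broadly expressed isotype, had 707 CPM (702 to 712) in control cells, 423 CPM (419 to 427) after 3 h and 317 CPM (314 to 320) after 6 h. Its 6 h level was 44.8% of the control, a log2 ratio of -1.16 (-1.17 to -1.14), and its 3 h ratio was -0.74 (-0.76 to -0.72). It was lower under all 3 scalings at both times, from -0.92 to -0.47 at 3 h and from -1.44 to -1.05 at 6 h. Of the 7608 genes, 1.21% had a lower ratio at 3 h and 1.68% at 6 h.

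The neighbours Tubb2a and Tubb2b differed from each other. Tubb2a, the least abundant member in the control, was at 26.6 CPM (25.7 to 27.6), 35.4 CPM (34.3 to 36.6) and 40.7 CPM (39.7 to 41.8), log2 ratios of 0.41 and 0.61. Tubb2b was at 243 CPM, 242 CPM and 199 CPM, log2 ratios of -0.00 and -0.29. Tubb2a was higher under all 3 scalings at both times, though not in barcodes under 30000 UMIs (thinned log2 ratio -0.14 at both times), and Tubb2b was lower under all 3 at 6 h only. The pair summed to 269 CPM, 277 CPM and 239 CPM. Tubb6 was at 40.8 CPM, 34.6 CPM and 35.2 CPM, with a 3 h ratio of -0.24 that became 0.03 by mean UMIs per barcode and a 6 h ratio of -0.21 that was below 0 under all 3 scalings.

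Ttc5 itself was higher in the treated libraries. Control cells had 37.6 CPM (36.5 to 38.8), against 51.1 CPM (49.7 to 52.5) after 3 h and 64.8 CPM (63.5 to 66.1) after 6 h, log2 ratios of 0.44 and 0.78. It was above the control under all 3 scalings, from 0.27 to 0.71 at 3 h and from 0.50 to 0.89 at 6 h. Ratios of this size were common among all genes, since 79.0% had a lower ratio than Ttc5 at 3 h and 85.8% at 6 h.

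**Figure D2:**
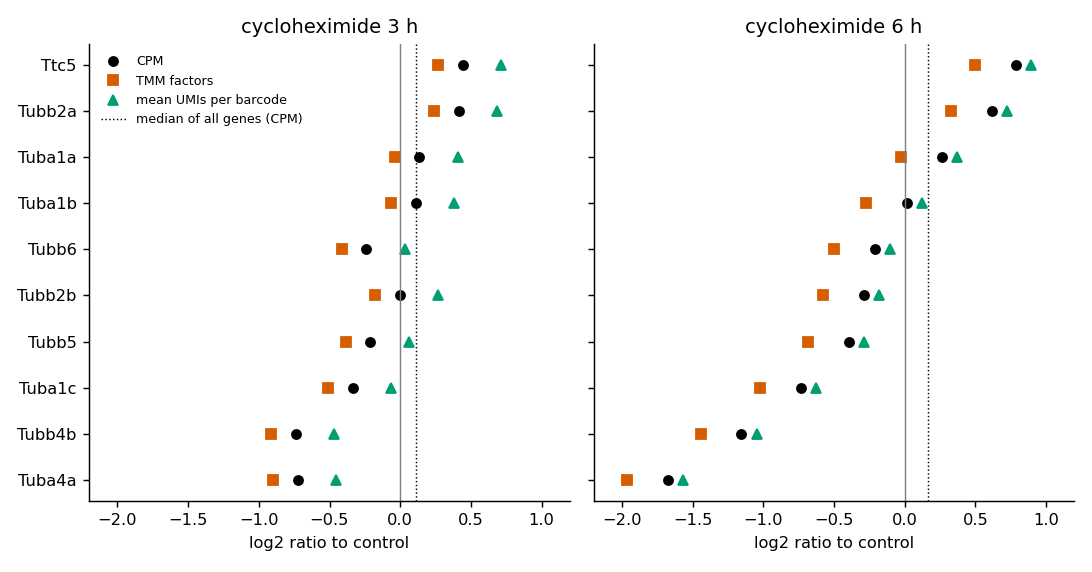
Log2 ratio of each member to the control at 3 h (left) and 6 h (right) by CPM (circles), TMM factors (squares) and mean UMIs per barcode (triangles), with the median of all 7608 genes by CPM as a dotted line. Tuba4a, Tubb4b and Tuba1c lie left of 0 under all 3 scalings in both panels, and Ttc5 and Tubb2a lie right of it.

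UMIs of 3' ends count molecules without regard to transcript length, so levels of the members can be set in order, although capture can differ between 3' ends. The share of 3' sequence found in other genes also differed between members, which the counting intervals do not cover. In the control the order was Tubb5, Tuba1b, Tubb4b, Tubb2b, Tuba1a, Tuba1c, Tuba4a, Tubb6, Ttc5 and Tubb2a, with no overlap between neighbouring intervals. At 3 h Tuba1b stood above Tubb5, Ttc5 stood above Tuba4a with overlapping intervals (49.75 to 52.47 and 47.30 to 49.95), and the intervals of Tubb2a and Tubb6 overlapped. At 6 h the order was Tuba1b, Tubb5, Tubb4b, Tuba1a, Tubb2b, Ttc5, Tuba1c, Tubb2a, Tubb6 and Tuba4a, with overlap of Tuba1a (199.8 to 204.5) and Tubb2b (196 to 200.9) only. Tuba4a went from the seventh place to the last.

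The make-up of each family differed between the libraries. Tuba1b accounted for 74.0%, 77.4% and 77.8% of alpha UMIs in the control, 3 h and 6 h libraries, and Tuba1a for 12.4%, 13.2% and 15.5%. Tuba4a made up 5.93% (interval 5.81 to 6.05), 3.47% (3.38 to 3.57) and 1.93% (1.87 to 2.00), and Tuba1c 7.61%, 5.85% and 4.76%. On the beta side Tubb4b went from 31.6% (31.4 to 31.8) in the control to 23.7% (23.5 to 23.8) at 3 h and 20.9% (20.7 to 21.1) at 6 h. Tubb5 had a larger share in the treated libraries, at 54.5%, 58.9% and 61.0%. The share of Tubb2a was 1.19%, 1.98% and 2.68%, and that of Tubb2b 10.8%, 13.5% and 13.1%.

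**Figure D3:**
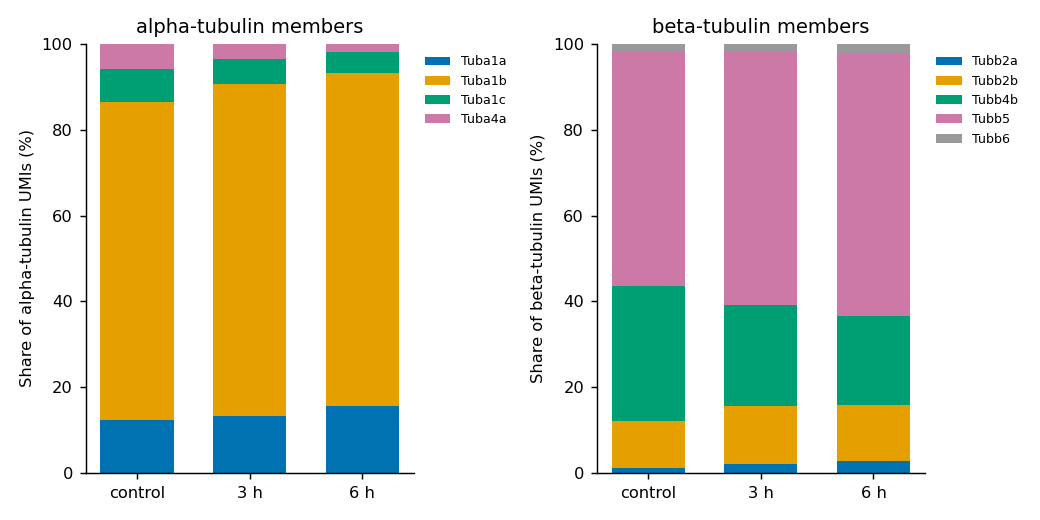
Share of alpha-tubulin UMIs (left) and beta-tubulin UMIs (right) from each member, in percent of the members of that family, in the 3 libraries. Tuba4a and Tuba1c narrow on the alpha side and Tubb4b narrows on the beta side from control to 6 h.

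Free RNA in the droplets was read from barcodes of 10 to 100 UMIs, since the libraries held no cell type that lacks tubulin. Summed tubulin there was 3956, 2873 and 2276 CPM in the control, 3 h and 6 h libraries. The alpha sum differed from the kept barcodes, with 1822, 1356 and 1127 CPM in free RNA. Tuba1b was at 1402, 1083 and 884 CPM there, lower in each later library, and Tuba1a at 188, 157 and 173 CPM, whereas neither was lower than the control in the kept barcodes by CPM. Tuba4a was at 87.0 CPM, 41.8 CPM and 22.4 CPM, Tubb4b at 608 CPM, 311 CPM and 225 CPM, and Ttc5 at 25.6 CPM, 48.7 CPM and 54.3 CPM. The part of free RNA in the counts of the kept barcodes was not tested beyond the subtraction described with the alternatives.

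Per-cell levels were compared after thinning each kept barcode to 15000 UMIs, which left out none. Tubb4b had a median of 10.0 UMIs per barcode in the control (quartiles 8.0 and 13.0), 6.0 at 3 h (3.0 and 8.0) and 4.0 at 6 h (2.0 and 6.0). The whole distribution lay lower in the treated libraries, and 0 control barcodes, 32 barcodes at 3 h and 188 barcodes at 6 h had no Tubb4b UMI. Tubb5 had medians of 18.0, 15.0 and 13.0 UMIs. Tuba1b had means of 15.1 (SD 4.88), 16.1 (SD 5.58) and 14.4 (SD 6.38) UMIs, with 5th percentiles of 8.0, 7.0 and 4.0, so its lower end reached further down at 6 h.

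Tuba4a had a UMI in 66.3% of thinned control barcodes (exact Clopper-Pearson interval 64.3 to 68.3), in 47.9% after 3 h (45.5 to 50.3) and in 29.1% after 6 h (27.3 to 30.9). Without thinning the shares were 92.5%, 84.7% and 63.7%. For Tuba1c the thinned shares were 71.3%, 62.2% and 49.3%, and the unthinned ones 93.4%, 90.2% and 80.6%. For Ttc5 they were 43.9%, 55.7% and 60.5%, and unthinned 80.7%, 89.2% and 91.7%. Thinned means of Tuba4a and Ttc5 were near 1 UMI, at 1.19, 0.703 and 0.361 for Tuba4a and 0.588, 0.812 and 0.980 for Ttc5, so their direction is read from the CPM. Such shares count barcodes with any UMI, free RNA included, and not expressing cells.

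**Figure D4:**
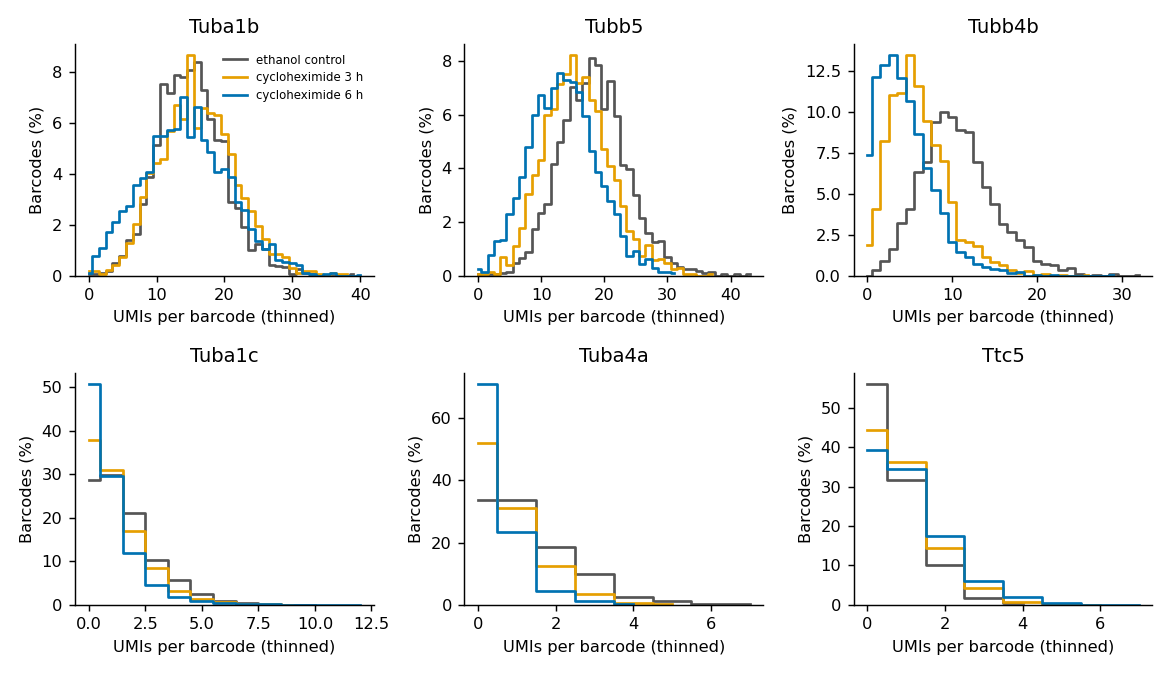
Percent of kept barcodes (vertical) with a given number of UMIs after thinning to 15000 UMIs (horizontal) for 6 members in the control (grey), at 3 h (orange) and at 6 h (blue). The Tubb4b distribution moves left from a median of 10.0 to 6.0 and 4.0 UMIs, while that of Tuba1b widens around means of 15.1, 16.1 and 14.4.

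Barcodes differed more from each other in tubulin UMIs in the treated libraries. The spread was taken as an excess squared CV (coefficient of variation), the variance less the mean, divided by the mean squared, in thinned barcodes. For the summed tubulins it took the values 0.0316, 0.0501 and 0.0997 in the control, 3 h and 6 h libraries, and the 5th and 95th percentiles were 35.0 and 74.7 UMIs in the control and 17.0 and 64.0 UMIs at 6 h. For Tuba1b it was 0.0385, 0.0585 and 0.126, for Tubb4b 0.0724, 0.176 and 0.337, and for Tubb5 0.0309, 0.0477 and 0.0788. It was higher at 6 h than in the control for 10 of the 10 members, against 53.4% of the 6047 genes with at least 0.2 UMIs per thinned barcode in every library. It had the order control, 3 h, 6 h for 8 of the 9 tubulins, all but Tubb6, against 19.7% of those genes. The median over the 6047 genes was 0.0734, 0.0750 and 0.0789. With a second thinning 8 of the 9 were in this order, all but Tubb2a, and thinned to 30000 UMIs 7 were, all but Tuba1a and Tubb6. At that depth the spread was higher at 6 h for 9 of the 10 members, all but Ttc5. These counts were added after the spread of the members had been seen, and the measure depends on the mean, which differed between the libraries.

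The difference from the control varied with the total UMIs of the barcode. Total UMIs themselves differed between the libraries, so the same range of UMIs need not hold the same kind of cells. Among barcodes of 15000 to under 30000 UMIs (311 in the control and 313 at 6 h), the thinned tubulin sum was 3372 CPM in control cells and 2162 CPM after 6 h, a log2 ratio of -0.64 (-0.68 to -0.61). Among barcodes of at least 60000 UMIs (598 and 750), it was 3634 CPM and 2961 CPM, a log2 ratio of -0.30 (-0.32 to -0.27). Tubb4b had ratios of -1.77 (-1.88 to -1.66) in the smaller and -1.04 (-1.10 to -0.98) in the larger barcodes, and Tuba1b had -0.28 and 0.06. Tuba4a had -1.97 (-2.33 to -1.64) and -1.61 (-1.80 to -1.42), intervals that overlap, and Ttc5 had 0.62 and 0.85. Tubb2a had -0.14 (-0.50 to 0.22) in the smallest barcodes, an interval that includes 0, against 0.67 from 30000 to under 60000 UMIs and 0.70 in the largest. Within the control, tubulin differed little between the largest and smallest barcodes (log2 ratio 0.11), and within the 6 h library it was higher in the largest (0.45). Summed CPM weights barcodes by their UMIs and thinned means do not. For Tuba1b the thinned mean was lower at 6 h than in the control while the summed CPM was nearly equal.

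Tubulin transcripts also varied with transcripts of dividing cells. A G2M score was formed within each library from 51 genes of the G2 and M phases without tubulins, and barcodes in the lowest and highest 20% were compared. Tuba1c stood out among the members, with 64.5 CPM in the lowest and 154 CPM in the highest 20% of the control, a log2 ratio of 1.26, followed by 1.31 at 3 h and 1.61 at 6 h. Tubb4b had ratios of 0.38, 0.66 and 0.98. Tuba1a had -0.02, -0.14 and 0.15, and Tuba1b had 0.07, 0.12 and 0.49. Tubb4b was lower at 6 h than in the control in the lowest 20% (-1.51, interval -1.59 to -1.42), the middle (-1.36) and the highest 20% (-0.91, interval -0.97 to -0.85). Tuba4a was lower in all 3 ranges as well, at -2.08, -1.71 and -1.44. Among the score genes themselves, 14 of 51 were lower past a log2 ratio of 0.5 at 6 h and 3 were higher (9.69% and 26.6% of all genes), with a median of -0.24, so the ranges of different libraries need not hold the same kind of cells. The score is read from transcripts and not from DNA content.

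**Figure D5:**
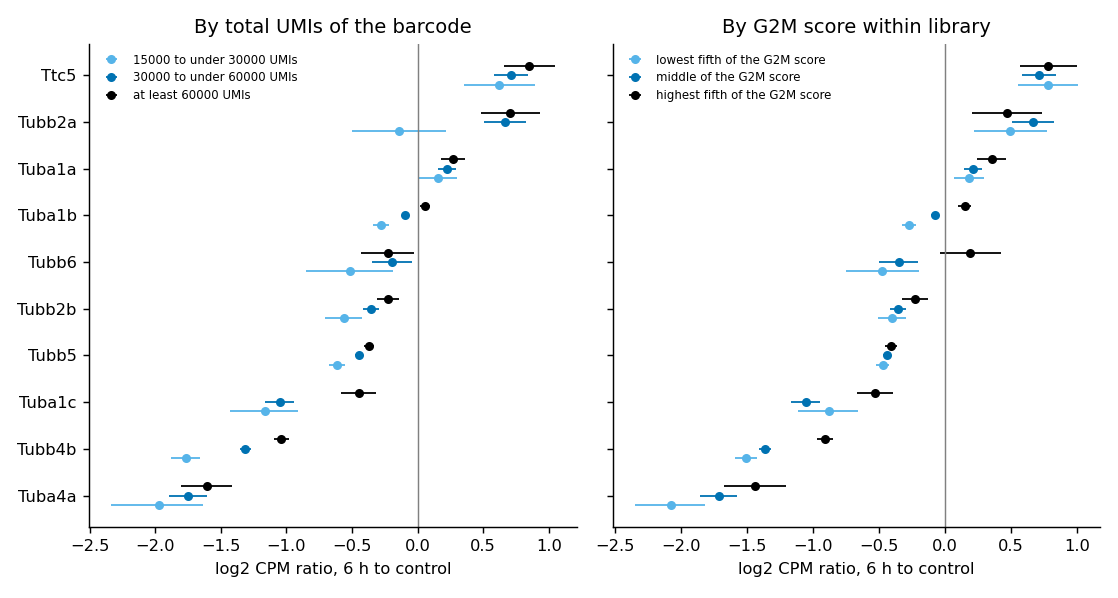
Log2 CPM ratio of 6 h to control in thinned barcodes for each member, by total UMIs of the barcode (left) and by range of the G2M score within its library (right), with exact conditional 95% intervals. Tubb4b, Tuba4a, Tuba1c, Tubb5 and Tubb2b are below 0 in all 6 ranges. The ratio of Tubb4b lies closest to 0 in barcodes of at least 60000 UMIs and in the highest 20% of the score.

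Alpha- and beta-tubulin UMIs were correlated from barcode to barcode, with higher coefficients in the treated libraries. Across thinned barcodes of 1 library, which share depth and preparation, Pearson's r between alpha and beta sums (log2 of 1 plus UMIs) was 0.42 over 2187 control barcodes, 0.52 over 1739 barcodes at 3 h and 0.63 over 2554 barcodes at 6 h. The strongest single pair was Tuba1b with Tubb5 in all 3 libraries, at 0.30, 0.40 and 0.52. Over the 36 pairs of tubulins the median r was only 0.06, 0.09 and 0.14. The thinned tubulin sum had r of 0.07, 0.17 and 0.30 with the total UMIs of the barcode (log2). Whether other pairs of genes also had higher coefficients in the treated libraries was not tested. Ttc5 had between -0.03 and 0.03 with every tubulin in every library, which in counts this sparse is no finding. Of 2929 other genes of at least 50 CPM, those most correlated with the tubulin sum in the control were Hspa8 (r 0.38), Gapdh (0.35), Ube2c (0.31), Eif4a1 (0.31), Cdk1 (0.29), Ubb (0.29), Ppia (0.29) and Cks2 (0.27). At 6 h Cdk1 had 0.40 and Hspa8 0.24. By the 2 ratios to the control, the genes nearest to the tubulin sum were mt-Co3, Adk, Psmd2, Rab5c and Tars, with log2 ratios from -0.18 to -0.16 at 3 h and from -0.35 to -0.34 at 6 h.

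The other tubulin genes were mostly near the detection limit. Of 11, Tubb3, Tubg1 and Tube1 had a mean of at least 10 CPM. Tubb3, the beta isotype typical of neurons and one of the 7 further genes with the shared coding start, had 65.3 CPM (63.8 to 66.8) in control cells, 35.1 CPM (34.0 to 36.3) after 3 h and 18.6 CPM (17.9 to 19.4) after 6 h, log2 ratios of -0.89 and -1.81. It was lower under all 3 scalings, while Stmn2, the other neural marker above 10 CPM, was at 71.7, 68.7 and 64.1 CPM. Tubg1, the gamma-tubulin of the centrosome, which lacks that coding start, was at 52.6 CPM in control cells and 65.9 CPM after 6 h, a ratio of 0.33 that was 0.04 under TMM factors. Tube1, encoding the centriolar epsilon-tubulin, was at 7.66 CPM, 12.1 CPM and 15.8 CPM, log2 ratios of 0.66 and 1.04. The remaining 6 genes with the shared start were each below 7 CPM in every library, Tuba3a being the highest at 6.77 CPM in the control.

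By CPM, most genes of the decay factors that act with TTC5 were close to the control. Scaper, the adaptor, was at 9.13 CPM (8.57 to 9.70), 7.27 CPM (6.77 to 7.80) and 7.40 CPM (6.95 to 7.86), log2 ratios of -0.33 and -0.30, and its mean was below 10 CPM. Over the 10 CCR4-NOT genes of at least 10 CPM, the median ratios were 0.17 and 0.14 in log2 units, beside 0.11 and 0.17 over all genes. At 6 h, 1 was lower past 0.5 and 1 higher by CPM, beside 9.69% and 26.6% of all genes. Cnot1, the scaffold of the complex, was at 154 CPM, 135 CPM and 109 CPM (log2 ratio -0.51 at 6 h), and Cnot2 was at 39.5 CPM, 52.2 CPM and 57.0 CPM (0.53 at 6 h). TMM factors shift each of these ratios by -0.17 at 3 h and -0.29 at 6 h. With that shift Cnot2 does not pass 0.5 at 6 h, and Cnot1 and Scaper lie further below the control.

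Genes of tubulin folding mostly lay near the control. Of 14 genes of prefoldin and the CCT chaperonin, which fold newly made tubulin, 0 passed a log2 ratio of 0.5 in either direction at either time, with medians of -0.01 (3 h) and 0.03 (6 h). Of all genes, 3.21% were lower and 17.9% higher past 0.5 at 3 h, and 9.69% and 26.6% at 6 h. The furthest from the control at 6 h were the chaperonin subunits Cct2 (-0.42) and Cct6a (-0.30), which passed the limit under TMM factors at -0.71 and -0.59. Of 6 genes for assembly of the dimer, 2 were higher past 0.5 at 6 h and 0 lower by CPM, beside 26.6% and 9.69% of all genes. They were Tbce with 19.1 CPM, 27.9 CPM and 33.6 CPM (log2 ratio 0.82 at 6 h) and Arl2 (0.50). TMM factors shift both by -0.29 at 6 h, and Arl2 then does not pass the limit.

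Among 12 microtubule regulators of at least 10 CPM, 5 were lower past 0.5 by CPM at 6 h and 0 higher. Their median was -0.23, and 9.69% and 26.6% of all genes were lower and higher by CPM. TMM factors shift every ratio at 6 h by -0.29, which gave 21.5% and 14.1% of all genes. Regulators past the limit were not counted under that scaling. The list shares 4 genes with the G2M score (Ckap5, Kif2c, Tacc3 and Tpx2), whose 51 genes had a median of -0.24, and the part of cell cycle differences in these ratios was not tested. The 5 were Tpx2, a spindle assembly factor (205 CPM, 149 CPM and 116 CPM, -0.82 at 6 h), Stmn1, which binds free tubulin dimers (568 CPM, 413 CPM and 325 CPM, -0.81), Map4, which stabilises microtubules (-0.65), Kif2c, a depolymerase (-0.62), and the katanin gene Katna1 (-0.56), the last named only to complete the count. All 5 remained below 0 at 6 h under TMM factors and by mean UMIs per barcode. Of 3 tubulin-modifying genes of at least 10 CPM, 0 passed 0.5 at 6 h: Ttll12 had 0.45, the deacetylase gene Hdac6 -0.40 (-0.69 under TMM factors) and Svbp 0.03.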

How the data were processed

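Raw UMI counts per gene and barcode were deposited by the authors, made with Cell Ranger 4.0.0 on mm10 per the submitters' processing notes. The annotation release is not given in the sources used here. No cells had been called in the tables of 6794880 barcodes, so barcodes with at least 15000 UMIs and 1 to 20% mt- UMIs were kept. No doublet caller was run, and barcodes above 2 times the median UMIs were left out in an alternative. UMIs were summed per library and expressed as CPM. Log2 ratios used a prior of 0.5 counts. Intervals are exact Poisson for levels, exact conditional binomial for ratios and Clopper-Pearson for shares, at 95%. Gene positions and coding starts came from GENCODE M21 on GRCm38, where 32158 of 32285 identifiers matched. Genes sharing the tubulin start were read from coding sequences, since no protein table was used here. Log2 ratios, their intervals and the thinning were tested on simulated Poisson counts, which lack the excess spread between barcodes seen here. Other calculations were not tested in this way. All used Python 3.11.15, numpy 2.4.6, scipy 1.17.1 and, for TMM factors, edgeR 4.0.16 in R 4.3.3. Of each further list, up to 4 genes were named by the size of the 6 h ratio, with Scaper added. Members and lists were chosen with earlier results of these data known.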

Additional observations from a re-analysis of the deposited data

Results flagged for a closer look

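The lower limit of 1% mt- UMIs left out 62 control barcodes, and a tubulin signal above that of the kept control barcodes appeared in them. Their summed tubulin level was 6518 CPM (6456 to 6582), against 3592 CPM in the kept barcodes, a log2 ratio of 0.86 (0.85 to 0.87). They were large, with a median of 110694.0 UMIs, and held 5.40% of the UMIs of both sets together. Across the 62 barcodes the summed level ran from 2202 to 7688 CPM with a median of 6307 CPM. Tuba1c was at 258 CPM against 103 CPM, Tuba1b at 2072 CPM against 1004 CPM and Tubb4b at 1296 CPM against 707 CPM, while Tubb2b (214 against 243 CPM) and Ttc5 (26.7 against 37.6 CPM) were lower than in the kept barcodes. The 3 h library had 1 such barcode and the 6 h library 8, the latter with 3154 CPM against 2819 CPM.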

How the results depend on the processing

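Of 30 log2 ratios of single members (10 genes in 3 comparisons), 21 kept their sign under all 9 alternatives and 9 did not, among them both ratios of Tuba1b and of Tuba1a to the control. Ratios of Tuba1c, Tuba4a, Tubb4b, Tubb2a and Ttc5 kept theirs. The summed tubulin ratio at 3 h was -0.35 under TMM factors, 0.10 by mean UMIs per barcode, -0.18 over CPM without mt-, histone and member genes, -0.23 without mt- limits, -0.19 without barcodes above 2 times the median UMIs and -0.14 with 10% free RNA subtracted. At 6 h these values were -0.64, -0.24, -0.37, -0.41, -0.39 and -0.30, and -0.34 in barcodes of at least 30000 UMIs. For 6 h against 3 h the ratio was -0.29 under TMM factors, -0.34 by mean UMIs per barcode, -0.19 over CPM without mt-, histone and member genes, -0.20 without barcodes above 2 times the median UMIs, -0.16 with free RNA subtracted and -0.17 in barcodes of at least 30000 UMIs. The remaining alternatives, a prior of 5 counts and none among them, stayed within the counting intervals. TMM factors shift every ratio alike. They moved the members lower past 0.5 from 3 to 6 at 6 h, and all genes from 9.69% to 21.5%. Between the times the members lower went from 1 to 3, and all genes from 3.68% to 6.18%. The 2 higher at 6 h became 0, beside 26.6% and then 14.1% of all genes. A floor of 50 CPM left 1 of these 2 because Tubb2a is below it, beside 19.3% of genes above that floor. By mean UMIs per barcode, added after the data had been seen, 0 members were lower and 2 higher at 3 h, beside 1.08% and 37.1% of all genes. There CPM gave 2 and 0, beside 3.21% and 17.9%. Between the times 3 members were lower by mean UMIs per barcode, beside 7.98% of all genes. A second thinning of the same barcodes left 29 of 33 shares of barcodes with a UMI within their intervals. These shares depend on depth, and only 4 of 33 stayed within them when thinned to 30000 UMIs and 6 of 33 without thinning. No paired analysis was possible because each group had 1 library. Variation between cultures and preparations could not be measured.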
